A study of Homo sapiens with 23 samples.

Results

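The comparison covered the 6 mRNA-seq libraries of mono-cultured HepG2 cells among the 23 libraries of the series, 3 from FFAs-treated cells and 3 from control cells, taken by their sample labels. HepG2 is an established line from a human hepatocellular carcinoma. The cells were kept in the microfluidic iGLC platform without Caco-2 cells, and the treated ones received free fatty acids (FFAs), palmitic and oleic acid at 1 to 2 and 1 mM in total, for 1 day. The labels give 0.5% fetal bovine serum in the medium during treatment, whereas the study's methods describe serum-free medium with albumin, and the labels do not tie a replicate to a culture. The study's methods speak of independent mRNA-seq experiments and of biological replicates, without saying which libraries share one. The series also holds 6 libraries of HepG2 cells co-cultured with Caco-2, an intestinal carcinoma line, again 3 with FFAs and 3 without. It further holds 11 libraries of Caco-2 cells, in mono-culture and co-culture, with and without the same FFAs for 1 day. Of these, the 6 mono-cultured ones, 3 with FFAs and 3 without, are compared below.

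Hepatocytes take up fatty acids, activate them to acyl-CoA and either burn them in mitochondria and peroxisomes, build them into triglycerides for lipid droplets and lipoproteins, or use them for membrane lipids. Fatty acids bind the PPAR nuclear receptors, which switch on genes of fatty acid oxidation, whereas unsaturated fatty acids lower the activity of SREBP-1, the activator of fatty acid synthesis. Saturated fatty acids such as palmitate can stress the endoplasmic reticulum, and oleate lessens this by steering palmitate into triglycerides. HepG2 cells keep many of these functions and are widely used as a model of steatosis.

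The 6 libraries held the transcripts of hepatocyte-type cells. All 15 hepatocyte-type markers were at 1 TPM or more in each of the 6 libraries, and their summed level ranged from 103472 to 120810 TPM in control and from 101805 to 117543 TPM with FFAs. In mono-cultured Caco-2 control libraries all 15 were at 1 TPM or more as well, but summed to 14344 to 23160 TPM. There APOA1 (mean 12134 TPM) and HNF4A (99.9 TPM) were at levels like those in HepG2, and the other markers were lower. In the 6 HepG2 libraries the 5 genes with the highest mean were those of albumin (ALB), the ferritin chains (FTL and FTH1) and the apolipoproteins APOA2 and APOA1. Here and below the 3 TPM values of a group are in the order of replicates 1 to 3. ALB stood at 33449, 33859 and 25169 TPM in control and 25698, 32224 and 31899.7 TPM with FFAs, which is -0.04 ± 0.19 (SE) on the log2 scale, with a 95% interval from -0.44 to 0.37, and the groups overlapped. The 14 intestinal markers summed to between 230.0 and 261 TPM in control and between 231 and 262 TPM with FFAs, most of it VIL1, the gene of villin, with 200.3 to 243.8 TPM. PHGR1 was listed at 0 in each library and GPA33 and SI in 5 of 6, and CDH17, at 398 TPM in Caco-2 control cells, stood at 0.05 to 0.76 TPM. GPA33 was low in Caco-2 control cells too, with a mean of 1.69 TPM. TFF3 stood at 12.6 to 26.7 TPM, against 389 TPM in Caco-2 control cells. FABP2 went the other way, at 0.80 to 2.91 TPM against 0 in Caco-2 control cells. The 8 stromal, blood and endothelial markers summed to 1.01 to 9.61 TPM in control and 1.38 to 21.3 TPM with FFAs, with the highest sum of each group in replicate 3. Their part in the results was not tested. The tables hold no read counts, so depth is unknown, and between 20195 and 22252 genes were above 0. FFAs replicate 1 stood furthest from the rest, with correlations of 0.952 to 0.971 over log2 levels, whereas the replicates numbered 3 of both groups reached 0.987, so results are also given without FFAs replicate 1.

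Across 13984 genes that averaged 1 TPM or more in either group (TPM is a gene's share of all transcripts, corrected for length), SPTSSB, of sphingolipid synthesis, was higher with FFAs and SLC2A2, a glucose carrier, was lower, both without overlap between the groups. Genes of cholesterol synthesis and uptake were mostly higher with FFAs. Those of the integrated stress response and of a joint list of gluconeogenic and insulin-responsive genes were mostly lower. None of these differences passed the test across all genes. No gene reached an adjusted p under 0.05 in limma with Benjamini-Hochberg adjustment (0 genes, 0% of those tested), and the smallest adjusted p was 0.995. At an unadjusted p under 0.05 stood 321 genes, 2.3% of those tested. Fold changes are differences of group means of log2(TPM + 1), which understates those of low genes, and are given as log2 fold change ± SE (n = 3 in each group). With a fold change of at least 1.2 as well, the size that the study asks for, 146 genes were higher with FFAs (1.04%) and 166 were lower (1.19%). If nothing differed, 699.2 genes would be expected at an unadjusted p under 0.05, so these genes are described below by their values and none is called changed. The study applied its cutoffs to an analysis of variance and any 2 of its conditions, so counts by these cutoffs, here with limma's p of 1 contrast, are not its counts. TPM are shares, so a level cannot tell fewer cells of a kind from less RNA per cell.

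Same-numbered control and FFAs-treated libraries deviated from their group means together, so the replicate number was also fitted as a block. The block took the median SE of a log2 fold change from 0.21 to 0.16. It brought 771 genes to an unadjusted p under 0.05, against 699.2 expected if nothing differed. By the study's cutoffs 329 were higher (2.35%) and 354 lower (2.53%) with the block. Again 0 genes had an adjusted p under 0.05 in limma, and the smallest adjusted p was 0.791. Counted without any model, 440 genes had every FFAs-treated library above every control library (3.15%) and 473 had every one below (3.38%). With 3 libraries a group, some genes come apart in this way even if nothing differs, so a lack of overlap alone marks no gene as changed. The middle 50% of genes lay between log2 fold changes of -0.12 and 0.13, and the plot of level against difference shows where 10 of the named genes lie.

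**Figure D1:**
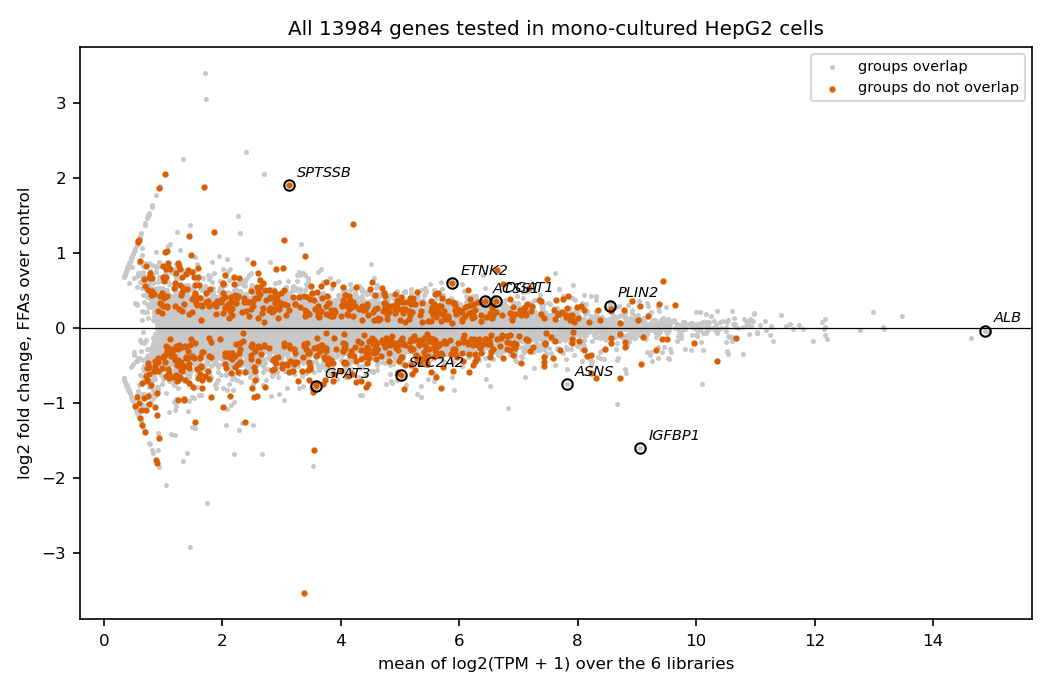
Each point is 1 of the 13984 genes tested, with its mean log2(TPM + 1) over the 6 libraries on the horizontal axis and its log2 fold change (FFAs over control) on the vertical axis. Orange points are the 440 higher and 473 lower genes whose groups do not overlap. SPTSSB (log2 fold change 1.90) is labelled in the upper part, below the largest log2 fold change of 3.40.

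SPTSSB had the smallest p of all genes tested. It encodes a small subunit of serine palmitoyltransferase, the enzyme that joins serine and a fatty acyl-CoA in the first step of sphingolipid synthesis (ENSG00000196542, chromosome 3, 161344798 to 161372880, minus strand on GRCh38). It stood at 3.05, 2.51 and 5.49 TPM in control and 14.9, 16.7 and 16.2 TPM with FFAs. Every treated library was far above every control, the mean was 4.32 times that of control, and the log2 fold change was 1.90 ± 0.32, with limma adjusted p = 0.995, or 0.791 with the replicate block. In co-cultured HepG2 cells the groups overlapped. They stood at 2.89, 9.08 and 6.45 TPM in control and 7.95, 6.78 and 5.88 TPM with FFAs. The difference between the mono-culture and co-culture effects was 1.67 (95% interval 0.68 to 2.65, limma adjusted p = 0.99997). SPTSSB was picked by its mono-culture values, which this difference reuses. In mono-cultured Caco-2 cells the mean of SPTSSB was 131 TPM in control and 125 TPM with FFAs. The Caco-2 transcript CDH17 was at most 0.52 TPM in the treated mono-cultured HepG2 libraries. Whether these libraries held any Caco-2 RNA was not tested.

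Among the other genes with at least 5 TPM and no overlap between groups, 2 more of lipid metabolism led the higher side. ETNK2, an ethanolamine kinase of phosphatidylethanolamine synthesis, stood at 44.2, 53.9 and 42.8 TPM in control and 82.1, 67.2 and 65.5 TPM with FFAs (log2 fold change 0.60 ± 0.17). DGAT1, which makes triglycerides from diacylglycerol and acyl-CoA, stood at 79.2, 96.7 and 83.0 TPM in control and 110.1, 107 and 115 TPM with FFAs (0.36 ± 0.11, 95% interval 0.12 to 0.60). ACSS1, the mitochondrial acetyl-CoA synthetase, was close within each group and apart between them, at 72.1, 75.7 and 78.9 TPM in control and 94.8, 96.2 and 99.4 TPM with FFAs (0.35 ± 0.12). The remaining 6 of the 10 higher genes with the smallest p were PIDD1, a death-domain protein of the p53 pathway (0.61), B4GALNT4, a glycosyltransferase (0.79), ZFP36L1, a protein that speeds the decay of AU-rich mRNAs (0.40), TTC13 (0.39), AL121845.2 (0.59) and SMIM11B (1.39). SMIM11B and AL121845.2 may share reads with a near-identical or overlapping gene, so their levels are uncertain.

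On the lower side SLC2A2 came first. It encodes GLUT2, the glucose carrier of hepatocytes (ENSG00000163581, chromosome 3, 170996347 to 171026743, minus strand). It stood at 38.9, 36.9 and 41.9 TPM in control and 24.5, 23.0 and 27.5 TPM with FFAs. All 3 treated libraries lay below all 3 controls and the within-pair differences were -0.65, -0.66 and -0.59 on the log2 scale, around a log2 fold change of -0.63 ± 0.16. Next was GPAT3, an acyltransferase of the first step of triglyceride synthesis, at 17.0, 13.9 and 13.4 TPM in control and 7.59, 9.95 and 7.24 TPM with FFAs (-0.77 ± 0.22), also without overlap. GLRX, the gene of the thiol repair protein glutaredoxin, stood at 227, 202 and 167 TPM in control and 149.6, 165 and 137 TPM with FFAs (-0.39 ± 0.12). The remaining 7 were the RNA-binding protein RBPMS (-0.57), the splicing factor U2AF1L4 (-0.58), the rhomboid protease RHBDD1 (-0.57), WDR13 (-0.46), the lysosomal channel TMEM175 (-0.57), FBRSL1 (-0.72) and the mitochondrial protein COA8 (-0.48). For these 20 genes, chosen for no overlap and a small p, limma adjusted p ran from 0.995 to 0.999.

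**Figure D2:**
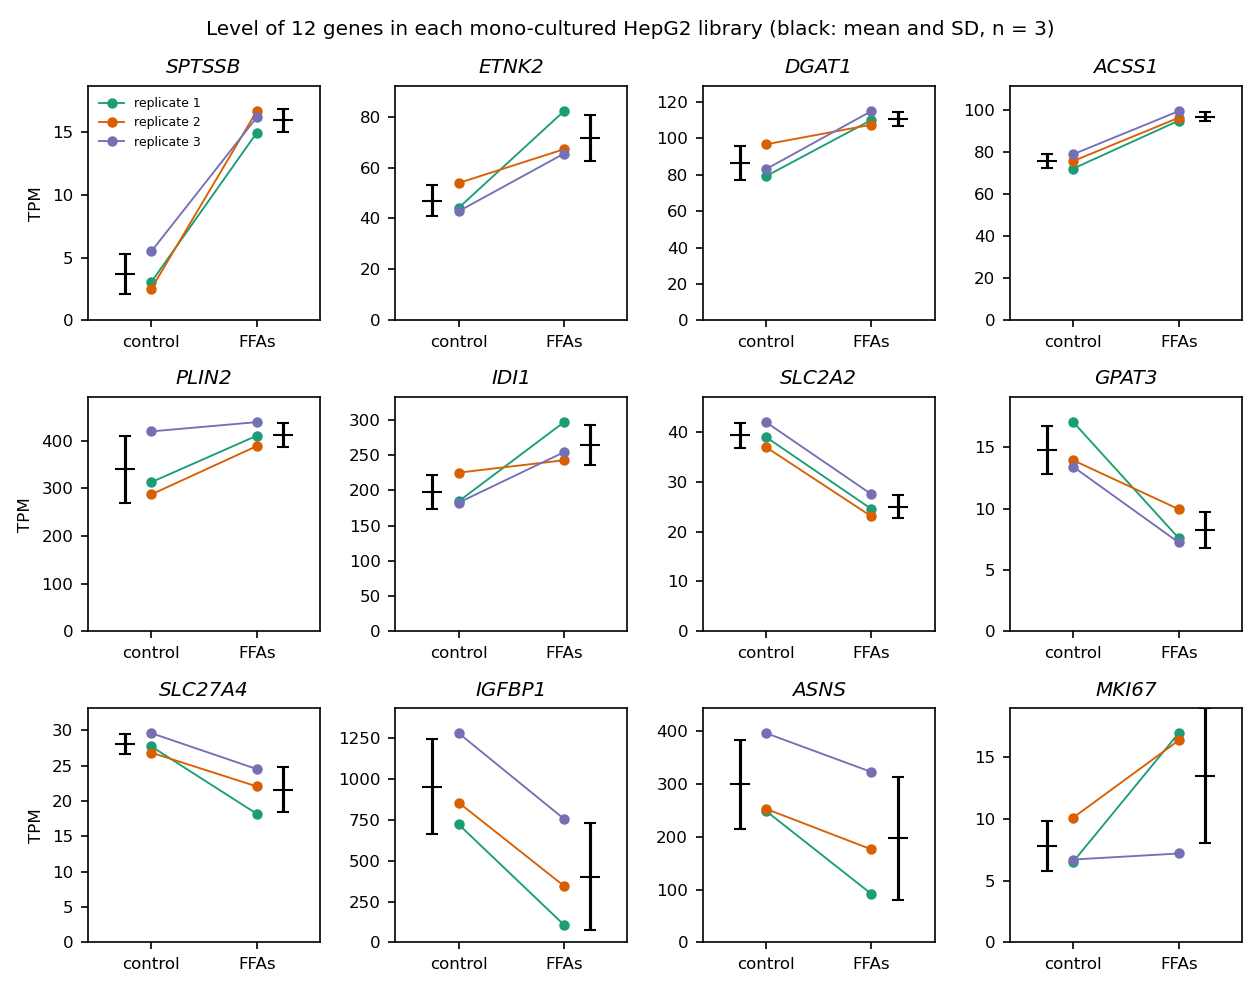
Levels in TPM (vertical axes from 0, linear) of 12 genes in the 3 control and 3 FFAs-treated mono-cultured libraries, with lines joining the same replicate number and black marks for mean ± SD (n = 3). SPTSSB, ACSS1, SLC2A2 and GPAT3 show no overlap between groups, whereas IGFBP1, ASNS and MKI67 differ within every pair but overlap between groups.

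The genes that fatty acids are known to switch on through PPAR lay on both sides of 0. Of the 30 listed, 27 were tested, 16 of them higher and 11 lower, with a median log2 fold change of 0.09 against 0.00 over all genes, and 8 were higher in 3 of 3 same-numbered pairs (29.6%, against 14.4% of all genes).

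Of the oxidation genes, ACAA2, a thiolase of mitochondrial beta-oxidation, stood at 225, 213 and 189.8 TPM in control and 284, 247 and 221 TPM with FFAs (0.26 ± 0.13), higher in each pair with overlapping groups. SLC25A20, which carries acylcarnitines into mitochondria, stood at 30.8, 30.3 and 17.4 TPM in control and 44.0, 30.2 and 32.4 TPM with FFAs (0.45 ± 0.25), higher in 2 of 3 pairs. CPT1A, the entry enzyme of mitochondrial oxidation, stood at 6.45, 5.69 and 5.18 TPM in control and 6.19, 4.67 and 6.24 TPM with FFAs (-0.02 ± 0.21) and showed no common direction. PDK4, a brake on pyruvate oxidation and a typical PPAR target, was under the filter: 0.07, 0.04 and 0.03 TPM in control and 0.17, 0.28 and 0.33 TPM with FFAs, all 3 treated libraries above the controls at very low levels. ANGPTL4, an inhibitor of lipoprotein lipase, stood at 1.09, 2.5 and 1.00 TPM in control and 1.74, 1.86 and 2.91 TPM with FFAs (0.36 ± 0.29) with overlap. PPARGC1A, the coactivator PGC-1alpha, was on the lower side, at 16.8, 27.9 and 28.1 TPM in control and 8.5, 17.5 and 20.8 TPM with FFAs (-0.65 ± 0.35), lower in each pair.

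Genes of lipid droplet proteins lay on both sides of 0 as well. 12 of 20 tested (of 24 listed) were higher and 8 lower (median log2 fold change 0.07), and 2 had no overlap in the higher direction (against 3.15% of all genes) and 0 in the lower (against 3.38%). HILPDA, an inhibitor of lipolysis on droplets, stood at 7.31, 9.38 and 11.5 TPM in control and 14.1, 13.2 and 12.6 TPM with FFAs (0.48 ± 0.24). FITM1, a protein of droplet formation, stood at 3.65, 2.99 and 2.07 TPM in control and 4.2, 4.2 and 3.94 TPM with FFAs (0.41 ± 0.24). All treated libraries were above all controls for both. PLIN2, the main droplet coat protein of liver cells, stood at 313, 287 and 419 TPM in control and 410.2, 388 and 439 TPM with FFAs. It was higher in each pair, but control replicate 3 lay above 2 of the treated libraries. Its log2 fold change was 0.30 ± 0.20 with limma adjusted p = 0.999, and 0.838 with the block. PNPLA2, the first lipase of stored triglyceride, stood at 74.8, 57.1 and 69.9 TPM in control and 35.3, 52.9 and 66.2 TPM with FFAs (-0.42 ± 0.23), lower in each pair.

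Of the uptake and activation genes, 8 of 17 tested (19 listed) were higher and 9 lower (median -0.04). DBI, the acyl-CoA-binding protein, stood at 738, 751 and 672 TPM in control and 1000.1, 873 and 795 TPM with FFAs (0.30 ± 0.14), without overlap. SLC27A4, a fatty acid transport protein with acyl-CoA synthetase activity, was apart in the other direction, at 27.7, 26.8 and 29.6 TPM in control and 18.2, 22.1 and 24.5 TPM with FFAs (-0.37 ± 0.14). ACSL5, a long-chain acyl-CoA synthetase, stood at 126, 136 and 147 TPM in control and 106, 128 and 96.3 TPM with FFAs (-0.32 ± 0.16), lower in each pair with overlap. Of the triglyceride genes, 10 of 19 tested (24 listed) were higher and 9 lower (median 0.02), with GPAT3 and DGAT1, above, apart in opposite directions. In fatty acid synthesis and desaturation, 12 of 19 tested (24 listed) were higher and 7 lower (median 0.06), and SREBF1, the gene of SREBP-1, stood at 41.6, 44.1 and 30.5 TPM in control and 28.7, 36.5 and 27.5 TPM with FFAs (-0.31 ± 0.19), lower in each pair.

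Genes of cholesterol synthesis and uptake were nearly all higher with FFAs, each by a small amount. Of 26 tested (27 listed), 24 were higher and 2 lower, with a median log2 fold change of 0.22. 12 were higher in 3 of 3 pairs (46.2%, against 14.4% of all genes), 4 had no overlap (against 3.15%), and 2 met the study's cutoffs (against 1.04%), or 10 with the block (against 2.35%). The pathway makes cholesterol from acetyl-CoA by way of mevalonate, and SREBP-2 drives most of its genes together. IDI1, which isomerizes isopentenyl diphosphate, stood at 184, 225 and 183 TPM in control and 297, 243 and 254 TPM with FFAs (0.42 ± 0.16). It was higher in each pair and without overlap.

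NSDHL, a later step of the pathway, was also apart, at 74.4, 75.4 and 59.3 TPM in control and 98.1, 91.5 and 77.2 TPM with FFAs (0.35 ± 0.15). HMGCS1, an enzyme of the mevalonate steps that is named here after its values were seen, was without overlap too, at 208, 181 and 139.7 TPM in control and 221, 237 and 221 TPM with FFAs (0.38 ± 0.22). LBR, a sterol reductase that also anchors the nuclear lamina, stood at 62.0, 78.0 and 77.8 TPM in control and 87.3, 91.8 and 77.4 TPM with FFAs (0.24 ± 0.12), higher in 2 pairs. The median difference of the list was 0.14, 0.04 and 0.46 in pairs 1 to 3, and without control replicate 3 the median was -0.04. Without FFAs replicate 1, 25 of 26 were higher (median 0.19). In co-culture 16 of 26 were higher (median 0.07, with pair medians of 0.18, 0.09 and -0.09), and in mono-cultured Caco-2 cells 7 (median -0.07).

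RefSeq promoter windows (GRCh38.p14, 250 bases before to 50 after a start site) were matched for 19 of the 26 genes, with 24 windows in all. The CCAAT box, read on both strands, was in 18 of these (75.0%) and in 34.6% of all 35116 windows. The sterol regulatory element core TCACNCCAC was in 1, that of SREBF2, and in 1.13% of all windows. The IDI1 window is shown because IDI1 had the smallest p of the list, with the CCAAT boxes and their reverse complement in capitals (3 matches, of which 2 overlap), 5′ to 3′ on the gene's strand.
IDI1 (chr10:1048837-1049136, minus strand): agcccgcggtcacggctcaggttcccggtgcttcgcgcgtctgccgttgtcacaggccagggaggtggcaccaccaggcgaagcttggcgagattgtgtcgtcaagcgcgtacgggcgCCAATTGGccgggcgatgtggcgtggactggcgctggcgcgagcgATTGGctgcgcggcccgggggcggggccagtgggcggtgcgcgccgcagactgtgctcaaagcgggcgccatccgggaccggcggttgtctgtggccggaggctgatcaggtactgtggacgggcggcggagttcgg

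Most genes of the integrated stress response were lower with FFAs, though none passed the test. In this response ATF4, translated when eIF2alpha is phosphorylated, switches on genes of amino acid synthesis, transport and tRNA charging. Of 27 tested (29 listed), 23 were lower and 4 higher, with a median log2 fold change of -0.44, the lowest of the 22 lists. 14 were lower in 3 of 3 pairs (51.9%, against 14.6% of all genes) and 0 were higher in all 3, and 1 met the study's cutoffs (against 1.19%), or 7 with the block (against 2.53%). ALDH1L2, a mitochondrial folate enzyme, stood at 8.83, 5.98 and 6.41 TPM in control and 1.34, 4.21 and 5.07 TPM with FFAs (-0.93 ± 0.36). TRIB3, a pseudokinase that restrains AKT and is named here after its values were seen, stood at 549, 598 and 455 TPM in control and 215, 387 and 443 TPM with FFAs (-0.67 ± 0.41). These 2 were the members without overlap, against 3.38% of all genes.

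ASNS, asparagine synthetase (ENSG00000070669, chromosome 7, 97851677 to 97872542, minus strand), stood at 249, 252 and 396 TPM in control and 91.6, 176 and 322 TPM with FFAs (-0.75 ± 0.39). PCK2, the mitochondrial form of phosphoenolpyruvate carboxykinase, stood at 475, 538 and 666 TPM in control and 234, 382 and 547 TPM with FFAs (-0.60 ± 0.30). Both were lower in each pair with overlapping groups, and the highest control was replicate 3 for both. CARS1, the cysteinyl-tRNA synthetase, stood at 75.5, 80.6 and 78.4 TPM in control and 34.2, 59.5 and 79.5 TPM with FFAs (-0.51 ± 0.30), lower in 2 of 3 pairs.

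The size of the difference varied between pairs. The median of the stress response list was -0.83 in pair 1, -0.36 in pair 2 and -0.04 in pair 3. Without FFAs replicate 1, 21 of 27 were still lower but the median was -0.11. In pairs 2 and 3, a count added after seeing the data, 14 of 27 were lower in both (51.9%, against 24% of all genes). In co-culture 23 of 27 had a lower mean (median -0.20), but the list median was -0.89, 0.37 and -0.14 in the pairs numbered 1 to 3, and from replicates 2 and 3 alone 21 of 27 were higher (median 0.16). Pair 1 had the lowest list median in both cultures. ASNS stood in co-culture at 399.8, 267 and 409.7 TPM in control and 216, 347 and 419 TPM with FFAs. In mono-cultured Caco-2 cells 21 of 26 were higher (median 0.09). The difference between these contrasts was tested gene by gene only, between mono-culture and co-culture, as given below.

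The amino acid response element core TGATGNAA, which ATF4 with a C/EBP partner is known to bind, was in 6 of the 34 RefSeq windows of the 22 matched members (17.6%), searched on both strands, and in 3.62% of all windows. It was found at AARS1, ASNS, ATF3, CARS1, CEBPG and SLC3A2. The windows of ASNS and CARS1 are shown because both genes are described above, with the match in capitals, at -68 to -61 from the start site in ASNS and on the opposite strand across the start site in CARS1.
ASNS (chr7:97872359-97872658, minus strand): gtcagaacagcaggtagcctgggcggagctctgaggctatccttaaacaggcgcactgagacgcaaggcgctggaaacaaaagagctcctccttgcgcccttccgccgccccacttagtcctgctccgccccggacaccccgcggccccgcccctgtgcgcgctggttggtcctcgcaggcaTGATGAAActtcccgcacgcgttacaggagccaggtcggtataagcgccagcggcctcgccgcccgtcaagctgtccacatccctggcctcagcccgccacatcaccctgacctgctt
CARS1 (chr11:3057374-3057673, minus strand): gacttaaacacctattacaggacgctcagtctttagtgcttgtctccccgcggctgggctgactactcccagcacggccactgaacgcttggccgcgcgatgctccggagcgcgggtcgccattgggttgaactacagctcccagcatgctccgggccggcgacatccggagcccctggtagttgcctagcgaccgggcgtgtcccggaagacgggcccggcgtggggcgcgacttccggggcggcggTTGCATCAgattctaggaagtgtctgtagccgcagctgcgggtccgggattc

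Gluconeogenic and insulin-responsive genes were mostly lower as well, 14 of 17 tested (20 listed), with a median log2 fold change of -0.29 and 8 lower in 3 of 3 pairs (47.1%, against 14.6%). IGFBP1, a secreted binder of insulin-like growth factors that insulin represses (ENSG00000146678, chromosome 7, 45888360 to 45893660, plus strand), had the lowest log2 fold change of any list member. It stood at 722, 856 and 1280.4 TPM in control and 107, 345 and 755 TPM with FFAs. Each treated library was below its same-numbered control, with differences of -2.74, -1.31 and -0.76 on the log2 scale, but FFAs replicate 3 lay above control replicate 1. The log2 fold change was -1.60 ± 0.84, with a 95% interval from -3.44 to 0.23, or from -2.85 to -0.35 with the block. In co-culture the libraries stood at 822, 455 and 1153 TPM in control and 103, 701 and 1233 TPM with FFAs, a log2 fold change of -0.76 ± 0.84. There replicate 1 was lower with FFAs and replicates 2 and 3 were higher.

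SLC2A2 and IRS1 were the members of this list without overlap (against 3.38% of all genes). IRS1, an adaptor of the insulin receptor named after its values were seen, stood at 4.52, 5.27 and 3.64 TPM in control and 2.84, 3.61 and 3.51 TPM with FFAs (-0.34 ± 0.21), with a gap of less than 0.1 TPM between the groups. PCK2 and PPARGC1A, both in this list, are described above. The list median was -0.63, -0.44 and 0.03 in pairs 1 to 3, and -0.05 without FFAs replicate 1. In pairs 2 and 3 alone, 8 were lower in both (47.1%, against 24% of all genes). In co-culture 10 of 17 were lower (median -0.07), with pair medians of -0.57, 0.29 and 0.11.

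Cell cycle genes had a higher mean with FFAs, but pairs differed in direction. 30 of 32 tested were higher and 2 lower (median log2 fold change 0.29), but 0 were without overlap (against 3.15%) and 3 were higher in 3 of 3 pairs (9.38%, against 14.4%). The median difference was 0.77 in pair 1, 0.38 in pair 2 and -0.44 in pair 3, and 0.06 without FFAs replicate 1. MKI67, the proliferation marker Ki-67, stood at 6.55, 10.1 and 6.72 TPM in control and 17.0, 16.4 and 7.21 TPM with FFAs (0.66 ± 0.30), so 2 treated libraries were high and the last was level with the controls. TYMS, thymidylate synthase, stood at 149, 165 and 182 TPM in control and 254, 209 and 165 TPM with FFAs (0.32 ± 0.18). MCM3, a subunit of the replicative helicase, stood at 145, 144 and 183 TPM in control and 218, 188 and 150.0 TPM with FFAs (0.23 ± 0.15). Both were higher in pairs 1 and 2 and lower in pair 3. CCND1, cyclin D1, stood at 140.2, 136 and 188 TPM in control and 178, 168 and 216 TPM with FFAs (0.28 ± 0.18), higher in each pair. In pairs 2 and 3, 3 of the list were higher in both (9.38%, against 25.3% of all genes). In co-culture the median was 0.01, and 0.43, 0.01 and -0.38 in pairs 1 to 3.

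**Figure D3:**
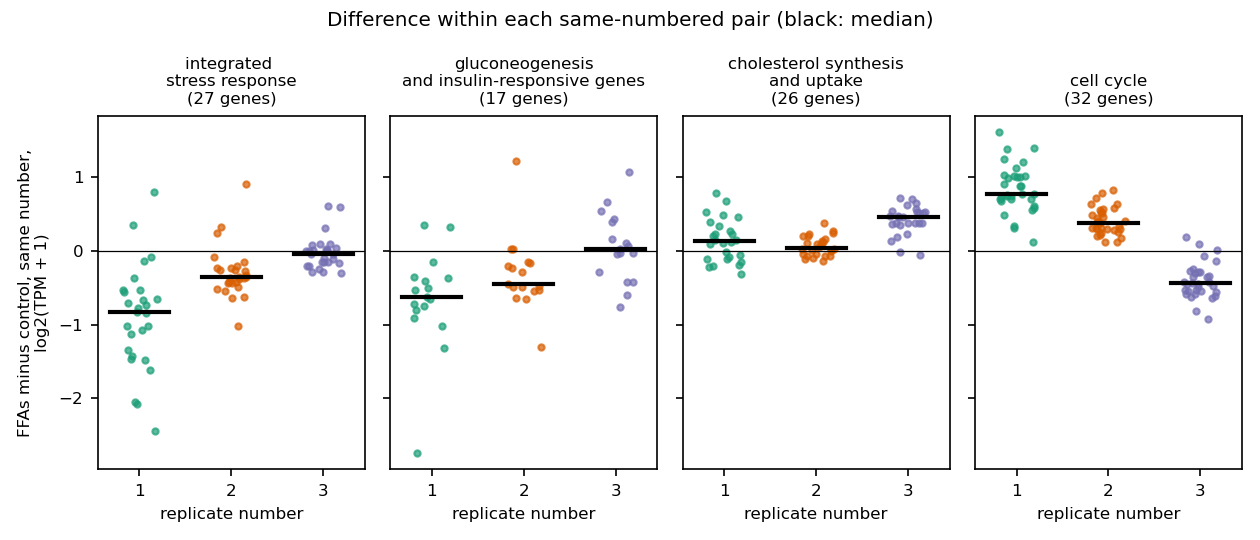
Within-pair difference (FFAs minus control of the same replicate number, log2(TPM + 1), vertical axis) for each gene of 4 lists, by replicate number (horizontal axis), with the median as a black bar. The integrated stress response has a median of -0.83 in pair 1 and -0.04 in pair 3, and cell cycle genes of 0.77 and -0.44.

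For the unfolded protein response of the endoplasmic reticulum, a pathway that palmitate is known to engage, 16 of 24 tested (24 listed) were higher (median 0.06). 0 were without overlap, against 3.15% (higher) and 3.38% (lower) of all genes, and 1 was higher in 3 of 3 pairs (4.17%, against 14.4%). HSPA5, the chaperone BiP, stood at 831, 940.4 and 1109.7 TPM in control and 1227, 874 and 1240.4 TPM with FFAs (0.21 ± 0.17). Among p53 targets and apoptosis genes 14 of 20 tested (20 listed) were higher (median 0.15). 0 were without overlap, against the same shares of all genes, which are small for a list of 20. For NF-kB and the acute-phase response 10 of 21 tested (32 listed) were higher (median -0.01), with ICAM1, an adhesion molecule, at 291, 284 and 153 TPM in control and 142, 229 and 139 TPM with FFAs (-0.49 ± 0.27). For immediate-early genes 13 of 18 tested (22 listed) were higher (median 0.10), with medians of -0.33, 0.35 and 0.05 in pairs 1 to 3. With 1 library left out the median of this list ran from -0.14 (without FFAs replicate 2) to 0.44 (without FFAs replicate 1), so its direction was not stable.

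Of the NRF2 targets, which answer oxidative stress, 17 of 22 were lower (median -0.11, or 0.01 without FFAs replicate 1). AKR1B10, an aldo-keto reductase, stood at 416, 346 and 342 TPM in control and 174, 317 and 255 TPM with FFAs (-0.60 ± 0.21, and -0.55 ± 0.21 in co-culture). HMOX1, heme oxygenase 1, stood at 34.7, 40.9 and 44.8 TPM in control and 57.9, 46.2 and 50.7 TPM with FFAs (0.36 ± 0.17). Both were without overlap, in opposite directions. Metallothioneins share close sequence, so reads may be split between them, and for them and copper genes 9 of 16 tested (18 listed) were higher (median 0.04). MT1G stood at 233, 124 and 121 TPM in control and 156, 418 and 247 TPM with FFAs (0.73 ± 0.37), lower in pair 1 and higher in pairs 2 and 3.

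Among hepatocyte products and regulators 16 of 29 tested (30 listed) were higher (median 0.01). CEBPA, a transcription factor of the hepatocyte state, stood at 39.2, 41.4 and 40.1 TPM in control and 43.6, 57.5 and 67.8 TPM with FFAs (0.45 ± 0.23). ASGR1, the asialoglycoprotein receptor, stood at 1076, 1106 and 1028 TPM in control and 866, 930.0 and 994 TPM with FFAs (-0.20 ± 0.11). Both were without overlap. For lipoproteins and their assembly 9 of 23 tested (23 listed) were higher (median -0.04), and APOC3, which slows the clearance of triglyceride-rich particles, was apart at 376, 473 and 436 TPM in control and 539, 513 and 594 TPM with FFAs (0.36 ± 0.15). Of the bile acid and sterol sensing genes, 11 of 17 were lower (median -0.10), with the bile acid transporter ABCC3 at 40.9, 41.8 and 44.1 TPM in control and 23.2, 30.6 and 37.0 TPM with FFAs (-0.49 ± 0.17). KLB, the co-receptor of endocrine FGFs, stood at 55.8, 66.1 and 66.1 TPM in control and 74.9, 77.5 and 94.6 TPM with FFAs (0.39 ± 0.17).

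In energy metabolism the lists of glycolysis, the respiratory chain and peroxisomes had medians close to 0. For glycolysis and the hypoxia response 12 of 26 tested (27 listed) were higher (median -0.01), and HK2, a hexokinase, was apart at 41.7, 43.6 and 56.6 TPM in control and 26.9, 37.0 and 38.1 TPM with FFAs (-0.47 ± 0.24). For the respiratory chain 20 of 31 tested (31 listed) were higher (median 0.03), and UQCRC2, a core subunit of complex III, was apart at 435, 389 and 386 TPM in control and 527, 473 and 437 TPM with FFAs (0.24 ± 0.13). For peroxisomes 11 of 23 tested (24 listed) were higher (median -0.01). For autophagy and the lysosome 6 of 22 tested (23 listed) were higher and 16 lower (median -0.12, or -0.05 without FFAs replicate 1).

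**Figure D4:**
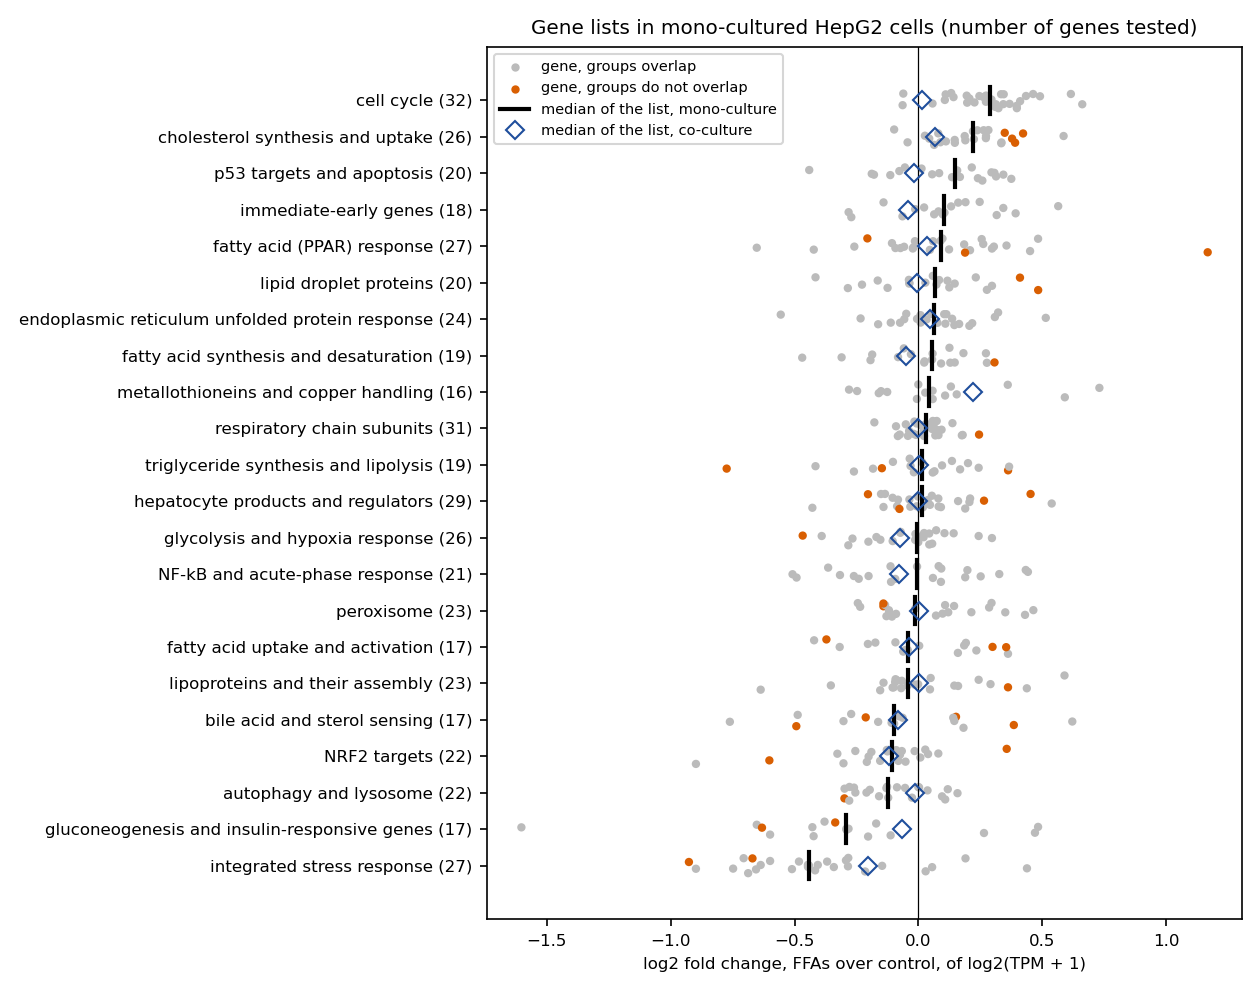
Log2 fold change (FFAs over control, horizontal axis) of every tested gene in 22 lists, ordered by their median (black bar), with orange points for genes whose groups do not overlap and blue diamonds for the list's median in co-culture. The cell cycle (0.29) and cholesterol (0.22) lists lie highest and the integrated stress response (-0.44) lowest, each with a co-culture median nearer to 0.

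The co-cultured HepG2 libraries gave another FFAs contrast in the same line. It has no library in common with the first but the same replicate numbers. Of the 146 genes higher by the study's cutoffs in mono-culture, 104 were higher in co-culture too (71.2%), against 60.5% of all genes higher in mono-culture. Of the 166 lower ones, 118 were lower in co-culture (71.1%), against 56.0%. Their size was smaller there, with a median log2 fold change of 0.13 for the higher genes (0.57 in mono-culture, where they were chosen) and -0.14 for the lower ones (-0.61). 11 and 10 of them met the same cutoffs in co-culture. The share of all genes that met them there was not counted, so these 2 counts have no background. From co-culture replicates 2 and 3 alone, counted after seeing the data, the shares were 56.8% (against 49.6% of all genes higher in mono-culture) and 48.8% (against 38.5%). In co-culture pair 1 the median difference was 0.20 for the higher genes and -0.37 for the lower ones, and in pairs 2 and 3 it lay between 0.00 and 0.02 for the higher and between 0.00 and 0.01 for the lower genes.

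The difference between the mono-culture and co-culture effects passed an adjusted p under 0.05 for 0 genes in limma (smallest adjusted p 0.99997). At an unadjusted p below 0.05 stood 154 genes (1.1%), and 361 with the block, against 699.2 expected if nothing differed. With the block 0 genes had an adjusted p under 0.05 as well. Some genes had a like mean difference in both cultures: ACSS1 (0.35 and 0.30), AKR1B10 (-0.60 and -0.55) and AL121845.2 (0.59 and 0.71). In SLC2A2 (-0.63 and -0.07) and PLIN2 (0.30 and -0.01) the mean co-culture difference was near 0. The 95% interval of the difference between cultures was -1.07 to -0.06 for SLC2A2 and -0.30 to 0.91 for PLIN2 (limma adjusted p = 0.99997 for both). SLC2A2 was picked by its mono-culture values, which this interval reuses, so the interval is no separate test. In co-culture SLC2A2 stood at 40.9, 30.7 and 25.8 TPM in control and 27.8, 35.0 and 28.9 TPM with FFAs. It was lower in replicate 1 and higher in replicates 2 and 3. In mono-cultured Caco-2 cells, 65.1% of the 109 higher genes with a value there were higher (59.9% of all such genes) and 43.1% of the 123 lower genes were lower (41.2%), shares close to those of all genes.

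**Figure D5:**
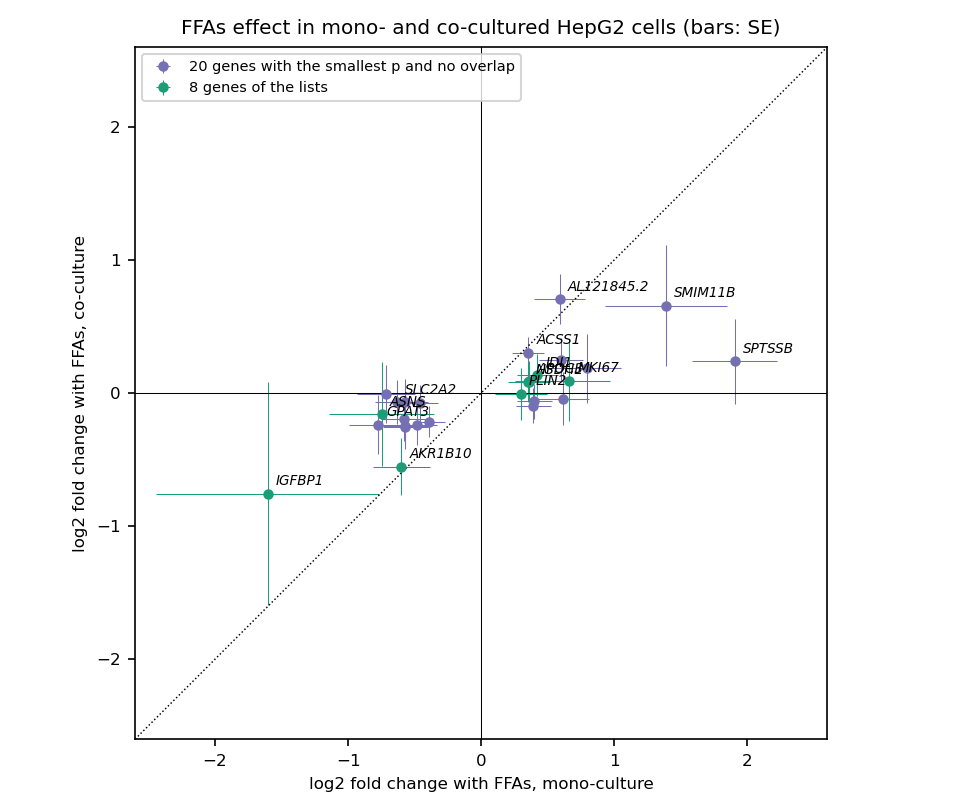
Log2 fold change with FFAs in mono-culture (horizontal axis) and co-culture (vertical axis) of HepG2 cells for the 20 genes with the smallest p and no overlap (purple) and 8 genes of the lists (green), with SE bars and a dotted line of equal change. AKR1B10 lies near the line, and SPTSSB (1.90 and 0.24) lies far below it.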

How the data were processed

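The authors deposited 1 table of TPM per library, made from SMART-Seq v4 libraries read on an Illumina sequencer. Per the labels and the study's methods, rRNA, tRNA and mitochondrial reads were removed with Bowtie2 2.1.0, the rest aligned to GRCh38 with STAR 2.7.1a and quantified against Ensembl 98 with RSEM 1.3.0. The removal, visible as 37 mitochondrial genes at 0 in every library, makes TPM a share of the remaining transcripts. Each table lists 60564 genes and no counts, so depth and its precision are unknown, and a 0 is only listed as such.

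From the TPM, limma 3.58.1 (R 4.3.3, eBayes with trend) was fitted on log2(TPM + 1) over the 12 HepG2 libraries as 4 groups without a block, after the study's joint analysis of a line's 4 groups, for the 13984 genes that averaged 1 TPM or more in either mono-cultured group. Calls used Benjamini-Hochberg adjusted p under 0.05. The study's cutoffs, an analysis of variance p under 0.05 and a size limit between any 2 conditions, were applied to limma's unadjusted p of the 1 contrast, so the counts differ in kind from the study's. The difference of the FFAs effects in mono-culture and co-culture was a contrast of the same fit. The labels give the groups the same replicate numbers but not what a number stands for. The deviations of same-numbered libraries from their group means correlated at 0.217, 0.413 and 0.569 over 10233 genes, each above the limit of 0.1, as was control 1 with FFAs 2 at 0.170 among the pairs of unlike number, and the replicate block was fitted beside the main model.

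The study's size limit is 0.263 on the log2 scale, a fold change of 1.2. Named were the 10 higher and 10 lower genes with the smallest p among those with at least 5 TPM in a group and no overlap, up to 4 genes with the smallest p of each of 22 lists, ALB, PLIN2, PDK4, CPT1A and ANGPTL4, and the 5 highest genes. Some genes that the rule names are not reported here. The comparison, the lists and the rules were chosen with earlier results of these data known. Symbols and coordinates are those of GENCODE 44 matched by Ensembl identifier (60295 of 60564). Scripts were tested on simulated data. Alternatives were the block, the 6 libraries alone, a pseudocount of 0.1, median-of-ratios scaling, quantile normalization, no filter, a filter of 5 TPM, no trend, each replicate left out, pairs 2 and 3 alone and co-culture replicates 2 and 3 alone.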

Additional observations from a re-analysis of the deposited data

How the results depend on the processing

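Counts of genes by the study's cutoffs depended on the model and the libraries, whereas the count at an adjusted p under 0.05 stayed at 0 or 1. With the replicate block 329 genes were higher and 354 lower, and with the block on the 6 mono-culture libraries alone 384 and 484. Without a filter on TPM (27532 genes) they were 279 and 286, and 1 gene was called, AC000032.1 (0.34, 0.41 and 0.33 TPM in control and listed at 0 with FFAs, limma adjusted p = 0.000941), which was also the 1 gene called for the difference from co-culture. With a filter at 5 TPM (10524 genes) they were 82 and 102, with fewer genes tested. Leaving out 1 library gave 100 to 433 higher and 88 to 313 lower genes and 0 to 1 called. The lower count was 88 without FFAs replicate 1, 313 without control replicate 3, 272 without FFAs replicate 2 and 271 without FFAs replicate 3, and the higher count was 433 without FFAs replicate 3. The called genes were AC005921.2 without control replicate 2 and RN7SKP86 without FFAs replicate 3. The causes were not tested. The other alternatives kept the counts within 1.5 times, and the block changed no other call. Of 1077 log2 fold changes of named genes under 15 alternatives, 1067 kept their direction. The 10 that reversed were close to 0 and came with 1 library left out, ALB from -0.18 to 0.070, CPT1A from -0.085 to 0.10, FTL from -0.12 to 0.018 and FTH1 from -0.093 to 0.11. Of 330 list medians, 315 moved by less than 1 SD over the pairs, and the cholesterol median of 0.22 was -0.04 without control replicate 3. With co-culture replicates 2 and 3 alone, chosen after seeing the data, the share of these genes in the same direction in co-culture went from 71.2% to 56.8% (higher) and from 71.1% to 48.8% (lower). The TPM tables hold no depth, so the counting error of low genes cannot be given, and 3 libraries a group leave wide intervals.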

Other observations

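Some genes differed in the same direction in each same-numbered pair while their groups overlapped. They were chosen after their values were seen, as genes with small p in the fit with the replicate block, and their adjusted p there (limma) was 0.791 or more. EEIG1, an estrogen-induced gene, stood at 29.5, 31.5 and 48.9 TPM in control and 41.3, 47.3 and 63.7 TPM with FFAs (log2 fold change 0.47 ± 0.09 with the block and ± 0.26 without). NID1, the basement membrane protein nidogen 1, stood at 58.9, 72.4 and 127 TPM in control and 88.2, 89.3 and 154 TPM with FFAs (log2 fold change 0.38 ± 0.08 with the block and ± 0.35 without). In both, every treated library was above its own control, but the groups overlapped with replicate 3 the highest of each group. FILIP1L stood at 23.8, 33.3 and 44.0 TPM in control and 16.8, 23.2 and 30.6 TPM with FFAs (log2 fold change -0.50 ± 0.10 with the block and ± 0.29 without), lower in each pair.

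AQP3, a channel for water and glycerol, stood at 9.24, 6.47 and 26.9 TPM in control and 5.16, 3.99 and 12.2 TPM with FFAs (log2 fold change -0.80 ± 0.15 with the block and ± 0.63 without), lower in each pair. GSTA1, a glutathione transferase that shares reads with close paralogs and is therefore uncertain, stood at 25.8, 24.6 and 6.12 TPM in control and 47.5, 38.2 and 14.3 TPM with FFAs (log2 fold change 0.86 ± 0.16 with the block and ± 0.64 without), higher in each pair and lowest in both libraries numbered 3. MVK, mevalonate kinase of the cholesterol pathway, stood at 40.8, 49.4 and 23.2 TPM in control and 71.5, 58.7 and 38.8 TPM with FFAs (log2 fold change 0.59 ± 0.15 with the block and ± 0.30 without), also higher in each pair.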
